A study of Mus musculus with 9 samples.

Results

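Retinoic acid is the signalling form of vitamin A. Retinaldehyde dehydrogenases of the Aldh1a family make it from retinal, Crabp1 and Crabp2 bind it in the cytoplasm, and enzymes of the Cyp26 family break it down. In the nucleus it binds the receptors Rara, Rarb and Rarg, which act on target genes as dimers with the retinoid X receptors Rxra, Rxrb and Rxrg. In the embryo this pathway patterns the limbs, the somites and the nervous system. The genes described here were named by symbol, as 9 genes of retinoic acid binding, synthesis, breakdown and reception, and every probe set that the platform annotation pairs with one of these symbols alone was taken. Of the 9 genes, 7 were in the table, with 10 probe sets, out of 14440 genes with 25581 such probe sets in all. Crabp2 and Aldh1a1 were not analysed here.

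Total RNA was measured on 9 Affymetrix expression arrays, 5 of tumours and 4 of normal skeletal muscle, in a mouse model of synovial sarcoma, a cancer of soft tissue. The tumours came from mice labelled MYF-5 CRE/SSM2, and their description names the fusion gene SYT-SSX; tumour 1 carries the label CC23, tumours 2 and 3 carry CC17-B and CC17-A, tumour 4 is SSM5 and tumour 5 is SSM4. Cre is thus named with Myf5, a gene of muscle precursors. Muscles 1 to 4 are wild type samples from the hind limb, intercostal muscle, the forelimb and a second hind limb sample. Each tumour label gives its code after the word mouse. Age, sex, strain and the number of muscle donors were not in the labels, CC17-A and CC17-B may come from 1 mouse, and genotype differs together with tissue. The p-values therefore cover only the spread among these arrays. For tumours it lies between labelled mice, apart from the CC17 pair, while for muscle it may lie within 1 animal. Precision is limited by how few arrays there are. The question is how the tumours differ from normal muscle.

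Values below are scaled intensities of a probe set, and a value is called dim where it lies below the floor, the 40th percentile of its array, which ran from 96.5 to 137. Testing required 4 or more arrays at or above the floor. Log2 fold changes are tumour minus muscle on the log2(intensity + 16) scale. Genes were called at an adjusted p under 0.05 by limma with Benjamini-Hochberg adjustment over all 10650 genes tested. In that comparison 48.0% of genes were called, 30.1% higher in tumour and 17.9% lower. Over all genes, the median difference was 0.23 on the log2 scale and ran from −0.024 to 0.44 over 5 other scalings, while the share of higher calls ran from 47.8% to 72.8%, against 62.6% as reported. Of 7 skeletal muscle markers 6 were called lower, and their summed level ran from 223 to 75890 in tumours and from 300736 to 420568 in muscle. Of 6 fibroblast markers in the table, out of 7 listed, 2 were higher, 1 lower and 3 not called, and their sum ran from 26364 to 105535 in tumours and from 36541 to 53294 in muscle. Of 6 epithelial markers in the table, out of 7 listed, all 5 tested were higher, with sums of 2510 to 13889 in tumours and 368 to 808 in muscle. Of 3 adipocyte markers in the table, out of 5 listed, the 2 tested were not called. The adipocyte sum was 108396 in muscle 2, 28164 to 34640 in the other muscle arrays and 478 to 32880 in tumours. The 3-prime to 5-prime ratio of the Actb control probe sets, a measure of RNA integrity, was 12.7 in tumour 1, 4.54 in tumour 4, 1.99 to 2.90 in the other tumours and 1.62 to 1.93 in muscle.

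Crabp1, Rarb and Aldh1a2 were higher in the tumours, Rarg and Cyp26b1 were not called, and Aldh1a3 was high in the CC17 pair of tumours but not called over the group. Rara, which reached the floor on 2 arrays, was not tested. Of the 6 genes tested, 3 were called higher and 0 lower, beside 30.1% and 17.9% of all genes. The groups did not overlap for the same 3 genes, beside 40.3% of all genes in either direction and 25.2% with the tumours higher. The median log2 fold change of the 6 was 1.68, beside 0.23 for all genes. By probe set, 3 of the 8 tested were called higher and 5 not called, beside 42.2% of all probe sets called and 25.7% called higher. Crabp1 passed the filter only through tumour arrays, so neither the count nor the median says how the whole set behaves. In these bulk samples, fewer cells of a type and less RNA per cell cannot be told apart.

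**Figure D1:**
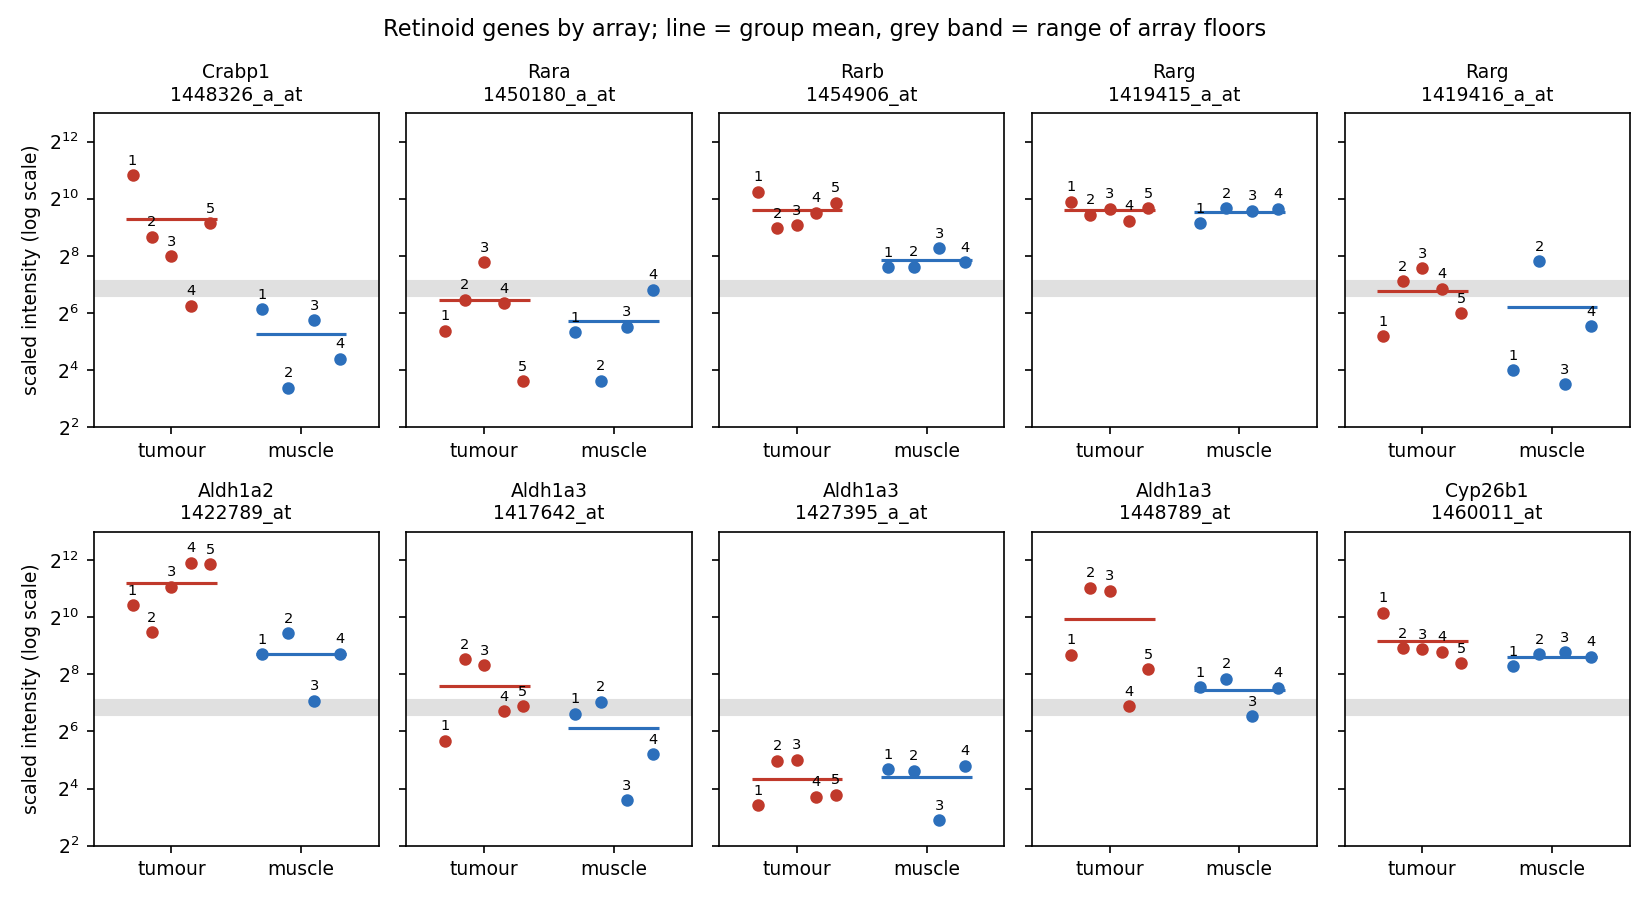
Scaled intensity (log scale) of each of the 10 probe sets on each array, with tumours 1 to 5 in red and muscles 1 to 4 in blue, numbered; lines are group means and the grey band is the range of the array floors. Rarb lies above the band on every array and Aldh1a2 on all but muscle 3, at 135 within the band, neither with overlap between the groups, and all 4 Crabp1 values of muscle lie below it.

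Rarb and Cyp26a1 are both known to respond to retinoic acid. The DR5 type of retinoic acid response element was searched for on both strands in the RefSeq promoters of build GRCm38.p6, from 250 bases before to 50 bases after each start. Its unit was taken as AGGTCA. The variant GGGTCA was allowed as well. So was the variant AGTTCA known from Rarb itself. The last variant, also known from Rarb, was GGTTCA in this search. A match was any unit followed after 5 bases by any unit in the same direction. A single unit on either strand was counted as well, and was present in 43.7% of promoters. The full match of 2 units was present in 32 of 32851 promoters (0.0974%). Of the 7 members in the table, 6 matched at least 1 promoter, with 10 promoters in all, and Aldh1a3 did not match. Of these 10, 4 held a single unit. The element of Rarb lies at −53 to −37 from the start; it is made of the variants taken for their presence in Rarb, so this match was fixed by the choice of units and singles out nothing. The other members' promoters had no match to these letters in this window. Among the other listed pathway genes with a promoter in this set, only that of Cyp26a1 had it, at −32 to −16 on the opposite strand. The 100 bases before each start are shown, on the strand of the gene, because they hold the element of a receptor and a degrading enzyme that were both called higher; capitals mark the 6-base elements. Rarb is at chr14:16575477-16575576, minus strand, and Cyp26a1 at chr19:37697708-37697807, plus strand.
Rarb: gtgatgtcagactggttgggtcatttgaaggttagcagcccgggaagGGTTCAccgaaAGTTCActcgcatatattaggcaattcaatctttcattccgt
Cyp26a1: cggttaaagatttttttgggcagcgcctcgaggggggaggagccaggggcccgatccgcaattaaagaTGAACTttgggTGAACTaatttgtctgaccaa

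Read along the strand of the repeat, both elements had 15 of 17 bases in common and differed by G1A and G9C, with the Rarb base first and positions counted from 1 at the 5′ end of the repeat.
Rarb: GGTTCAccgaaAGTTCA
Cyp26a1: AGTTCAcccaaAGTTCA
The second repeat unit was the same in both. The units allowed in the search share most of their bases, so much of this likeness was fixed by the choice of units. Of the 31 genes with the element, 4 were tested, too few to set against the 30.1% of all genes called higher, and 2 of them, Rarb and Cyp26a1, were shown because they were called. The 4 are Rarb, Cyp26a1, Blvrb, a biliverdin reductase, called higher at a log2 fold change of 2.25, and Tnfsf13b, a cytokine of B cells, which was not called at −0.48. The last of these were named after their values were seen. A match is a stretch of letters, and binding was not measured here.

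Of the cytoplasmic binding proteins, Crabp1 (1448326_a_at) was at 1816, 408, 254, 76.0 and 566 in tumours 1 to 5. In muscles 1 to 4 it was at 69.7, 10.4, 53.8 and 21.1. Every muscle value was dim, and so was that of tumour 4, which lay just above the highest muscle value; the other tumours were clear of both. The tumour mean was 624 ± 691 (SD, n = 5) and the muscle mean 38.8 ± 27.7 (SD, n = 4). Tumour 1 carried the tumour mean, which was 326 ± 210 (SD, n = 4) without it. The log2 fold change was 3.05 (SE 0.73, limma adjusted p = 0.00519). With the floor standing in for muscle, the tumours stood 3.43-fold above it by mean log2 level of Crabp1. Tumour 4, itself dim, entered at its own value, so this is not a strict lower limit. Without tumour 1 the value was 2.36-fold. With single arrays left out and the gene kept in the test, the log2 fold change ran between 2.51 and 3.59. Crabp1 was called each time (limma adjusted p at most 0.0172). The 4 arrays that reached the floor were all of tumours, so without any of these the gene would have failed the filter. Tumour 1 is also the array with the highest Actb ratio, and without it the log2 fold change was 2.51 (adjusted p = 0.00701).

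Of the receptors, Rarb (1454906_at) was the one called higher. Its values were 1214, 497, 540, 732 and 933 in tumours 1 to 5, and 193, 196, 309 and 219 in muscles 1 to 4. No array was dim, and the lowest tumour, tumour 2, stood above the highest muscle, the forelimb sample. The means were 783 ± 296 (SD, n = 5) and 229 ± 54.5 (SD, n = 4), a 3.14-fold difference on the log scale used (log2 fold change 1.65, SE 0.29, limma adjusted p = 0.00073). Tumours 1 and 5 were highest, at 5.29 and 4.07 times the muscle mean, and tumour 2 lowest, at 2.17 times.

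Rarg, the receptor known from skin and cartilage, was not called by its brighter probe set. This probe set (1419415_a_at) read 955, 692, 803, 600 and 818 in the tumours. The muscle arrays read 565, 812, 765 and 806, so the groups overlapped throughout. Its means were 774 ± 134 (SD, n = 5) and 737 ± 117 (SD, n = 4). The log2 fold change was 0.066 (95% interval −0.38 to 0.51, limma adjusted p = 0.807), and its sign turned under 4 of the 5 other scalings. The interval leaves room for a rise of up to 0.51 or a fall of down to −0.38. The other probe set of Rarg (1419416_a_at) reached the floor on 4 arrays, ran from 36.3 to 190 in tumours and from 11.3 to 223 in muscle, and was not called (log2 fold change 0.89, adjusted p = 0.308 over probe sets). It was just called without muscle 2, the intercostal sample that held the 223, at 1.56 (adjusted p = 0.0499).

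Rara, the broadly expressed receptor, had 1 probe set here (1450180_a_at), near background. It was at 41.7, 88.0, 219, 81.1 and 12.2 in the tumours and 40.1, 12.3, 45.9 and 112 in muscle. Only tumour 3 and muscle 4 reached their floor, and the groups overlapped. A difference in Rara was therefore not measurable with this probe set.

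Of the enzymes of synthesis, Aldh1a2, the main retinoic acid producing enzyme of embryonic mesoderm, was at 1368, 715, 2150, 3848 and 3725 in tumours 1 to 5. It was at 416, 695, 135 and 423 in muscles 1 to 4, on probe set 1422789_at. The tumours labelled SSM5 and SSM4 were highest, and tumour 2 stood just above the intercostal muscle, by less than the spread within either group. The means were 2361 ± 1397 (SD, n = 5) and 417 ± 229 (SD, n = 4), with a log2 fold change of 2.40 (SE 0.54, limma adjusted p = 0.00387). The fibroblast marker sum was also highest in tumours 4 and 5, at 105535 and 68748, and ran from 26364 to 37965 in tumours 1 to 3. The sum of 4 Schwann cell markers in the table, out of 6 listed, was highest in the same tumours, at 10583 and 8842 against 3525 to 6305 in tumours 1 to 3 and 4520 to 6849 in muscle. So was that of 3 macrophage markers, out of 7 listed, at 2972 and 3800 against 973 to 2157 in tumours 1 to 3 and 1356 to 1845 in muscle. All 6 fibroblast and all 3 macrophage markers reached the floor on every array. Of the 4 Schwann cell markers, only 1 or 2 reached it in each of tumours 1 to 3. Against muscle, 0 of these 4 were called higher, 2 lower and 2 not called. In tumours 2 and 3 the fibroblast sum was below that of every muscle array. Aldh1a2 was at 1.71 times the muscle mean in tumour 2 and at 5.15 times in tumour 3. The part of the fibroblast, Schwann cell and macrophage markers in the Aldh1a2 result was not tested.

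Aldh1a3, a retinaldehyde dehydrogenase of epithelia and of the developing eye and nose, differed widely among the tumours. Its brightest probe set (1448789_at) read 412, 2103, 1944, 118 and 288 in tumours 1 to 5, and 186, 231, 92.0 and 184 in muscles 1 to 4. The tumours CC17-B and CC17-A, the pair that may share a mouse, were 12.1 and 11.2 times the muscle mean. Tumour 4 lay within the range of muscle, tumours 1 and 5 above it. The group means were 973 ± 966 (SD, n = 5) and 173 ± 58.5 (SD, n = 4). The gene was not called (log2 fold change 1.71, 95% interval 0.080 to 3.33, limma adjusted p = 0.0778), and it was called without tumour 4, at 2.24 (adjusted p = 0.0124), or with ribosomal protein and proteasome genes as the centre of each array, at 1.91 (adjusted p = 0.0461). A second probe set (1417642_at) was also highest in tumours 2 and 3, at 369 and 318, with 51.2, 105 and 117 in tumours 1, 4 and 5 and 12.1 to 132 in muscle. It was not called either (log2 fold change 1.26, adjusted p = 0.132 over probe sets). The remaining one (1427395_a_at) was dim on all 9 arrays, from 7.44 to 32.1, and was not tested. The epithelial marker sum was 13889 in tumour 3 and 2510 in tumour 2, the lowest of the tumours, while Aldh1a3 was high in both. The part of these markers in the Aldh1a3 values was not tested.

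Of the degrading enzymes, Cyp26b1 (1460011_at) was not called. Tumours 1 to 5 read 1145, 479, 471, 445 and 336, and muscles 1 to 4 read 314, 415, 436 and 393. Tumours 1 to 4 lay above every muscle array, tumour 1 by far and tumours 2 to 4 by less than the spread within muscle, and tumour 5 lay within the muscle range. The means were 575 ± 323 (SD, n = 5), or 433 ± 66.0 (SD, n = 4) without tumour 1, and 389 ± 53.3 (SD, n = 4). The log2 fold change was 0.42 (95% interval −0.27 to 1.11, limma adjusted p = 0.294), and 0.14 without tumour 1.

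**Figure D2:**
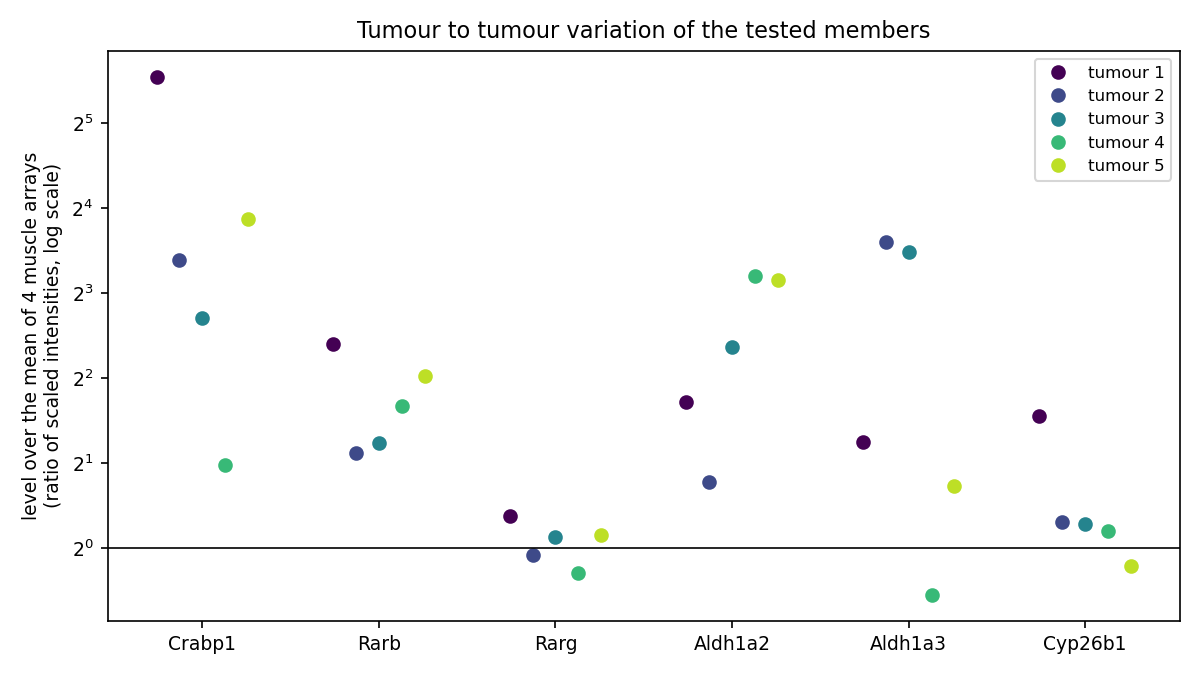
Level of each tested member in each tumour as a multiple of the mean of the 4 muscle arrays (ratio of scaled intensities, log scale), by the probe set that represents the gene; the line at 1 is the muscle mean. Aldh1a2 is highest in tumours 4 and 5, Aldh1a3 in tumours 2 and 3 and Crabp1 in tumour 1, whose plotted ratios are set against dim muscle values and so are no measure of fold; Rarg stays between 0.815 and 1.30.

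The tumours thus held different members of the set at their highest levels. Tumour 1 was highest in Crabp1, Rarb and Cyp26b1, at 5.29 times the muscle mean for Rarb and 2.94 times for Cyp26b1. For Crabp1 no ratio is given, since every muscle value was dim. Tumours 2 and 3 were highest in Aldh1a3 and lowest in Rarb. Tumour 4 was highest in Aldh1a2, at 9.22 times, and lowest in Crabp1, where it was itself dim, and in Aldh1a3, at 0.681 times. With 1 array per tumour these orders have no replicate check. Tumours 1 and 4 also had the highest Actb ratios, at 12.7 and 4.54, and the part of RNA integrity in these orders was not tested.

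The 3 called members changed at least 2-fold, beside 21.9% of all genes that were called higher with such a change, and the genes with the most similar levels over the 9 arrays were found for each. Likeness was the root mean square difference between log2 levels, each gene centred on its own mean. For Crabp1 these were Nrcam, a neural cell adhesion molecule, and Adcy1, an adenylyl cyclase, at 0.78 and 0.80 log2 units, where the median gene differed by 1.89. Nrcam too was highest in tumour 1, at 897, and lowest of the tumours in tumour 4, at 95.4. That value and every muscle value of Nrcam were dim, so Nrcam passed the filter only through tumour arrays. Adcy1 was dim in muscles 1 to 3. With its probe sets averaged Nrcam was not called, at 0.70 (limma adjusted p = 0.282). For Rarb they were Supt16, a histone chaperone subunit, and Ttll5, a tubulin modifying enzyme, at 0.25 and 0.26, where the median gene differed by 0.98. For Aldh1a2 they were Pdgfc, a platelet-derived growth factor, and Ssh3, a cofilin phosphatase, both at 0.45, where the median gene differed by 1.47. Ssh3 was dim in muscles 1 to 3. Pdgfc was at 2003, 674, 2593, 4126 and 3567 in tumours 1 to 5 and at 551, 702, 350 and 331 in muscle, with tumour 2 below the intercostal muscle. All share the split between tumour and muscle, and the likeness is a description only.

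The other genes of the pathway moved both ways. Of 69 listed, 53 were in the table and 39 were tested, of which 9 were higher, 9 lower and 21 not called, or 46.2% called beside 48.0% of all genes. Their median log2 fold change was −0.32 beside 0.23 for all genes. The share called was thus near that of the array as a whole. When ribosomal protein and proteasome genes set the centre of each array, 14 were called higher.

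**Figure D3:**
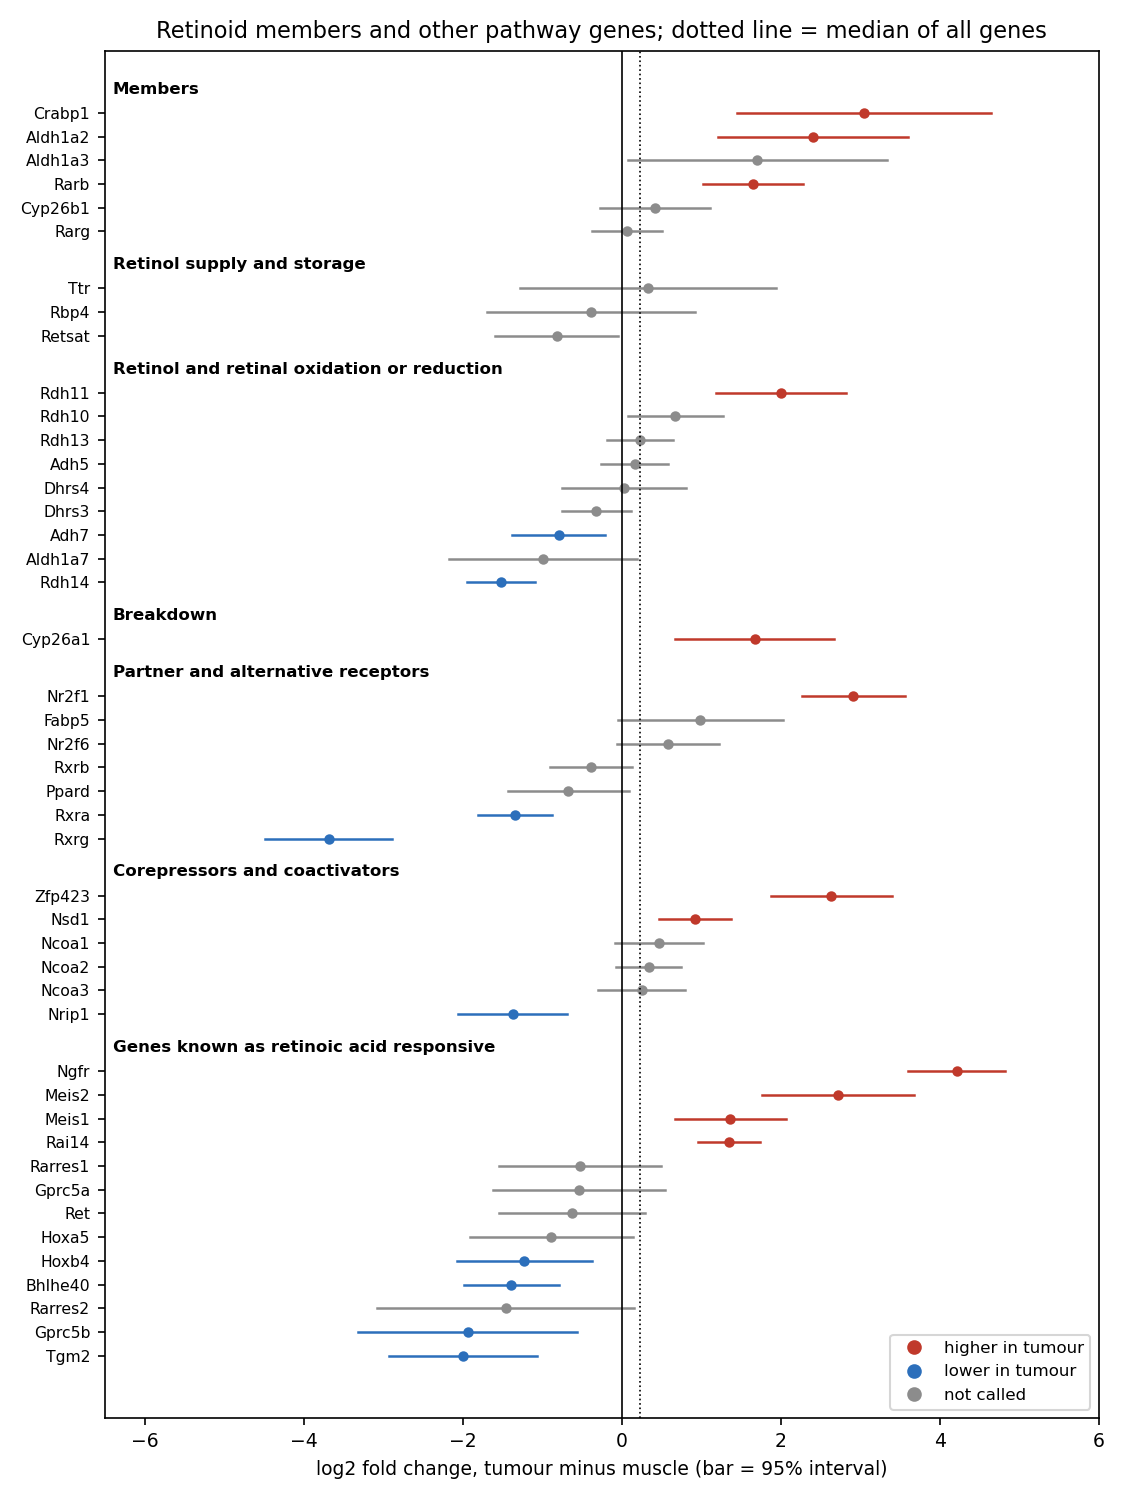
Log2 fold change, tumour minus muscle, of the tested members and of the other tested pathway genes by role; points are estimates, bars 95% intervals, red called higher, blue called lower, grey not called, and the dotted line is the median of all genes. Rxra and Rxrg lie left of 0 and Nr2f1 right of it among the partner receptors, and genes known as responsive lie on both sides.

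Of 3 tested genes that supply and store retinol, 0 were called at an adjusted p under 0.05 by limma, beside 48.0% of all genes, and 1, Retsat, a retinol saturase, had an unadjusted p under 0.05 (log2 fold change −0.82). Of 9 tested genes that interconvert retinol and retinal, 1 was higher, 2 lower and 6 not called, or 33.3% called. Rdh11, a retinal reductase, was at 709, 775, 496, 275 and 301 in tumours 1 to 5 and 102, 168, 62.7 and 111 in muscle, with no overlap (log2 fold change 2.00, limma adjusted p = 0.0011, and 0.79 on its other tested probe set, 1449209_a_at). Rdh14, another retinol dehydrogenase, fell by 1.52 on the log2 scale, from 4152 ± 181 (SD, n = 4) in muscle to 1462 ± 280 (SD, n = 5). Its other tested probe sets, 1453864_at and 1457019_s_at, were not called, at 1.14 and 0.61, and with all Rdh14 probe sets averaged the value was 0.080. Adh5, a dehydrogenase found in most tissues, was not called, at 0.17. Its sign turned under 2 scalings, and after quantile normalization it was called higher, at 0.52 (adjusted p = 0.0310).

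Of the other breakdown enzymes, Cyp26a1 was tested and called higher. It was at 206, 333, 357, 129 and 189 in tumours 1 to 5 and at 29.6, 88.9, 29.2 and 141 in muscles 1 to 4. Every tumour reached the floor, while muscles 1 to 3 were dim and tumour 4 lay below muscle 4, so the groups overlapped and the size of the difference rests on dim values. The log2 fold change was 1.67 (SE 0.46, limma adjusted p = 0.0108), and the call ended without muscles 2 and 3, at 1.53 (adjusted p = 0.0621). Tumours 2 and 3 were highest in Cyp26a1 as in Aldh1a3.

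The retinoid X receptors, the dimer partners of Rara, Rarb and Rarg, were lower or not called. Rxrg, the form known from skeletal muscle, was at 148, 117, 28.0, 86.5 and 120 in the tumours and at 1734, 1111, 1172 and 1456 in muscle. It fell by 3.68 on the log2 scale (SE 0.36, limma adjusted p = 2.3e-05), and tumours 3 and 4, with the lowest sums of skeletal muscle markers at 3272 and 223, were dim in it. The part of the muscle markers in this result was not tested. Rxra, named after its values were seen, fell by 1.34 (limma adjusted p = 0.000412), from 1139 ± 199 (SD, n = 4) to 444 ± 93.0 (SD, n = 5). Rxrb was not called, at −0.39 (adjusted p = 0.201), but was called without muscle 2, at −0.59 (adjusted p = 0.0381), under array weights, and with arrays scaled to a common 75th percentile. Over all partner and alternative receptors, 1 of 7 was higher, 2 lower and 4 not called, or 42.9% called beside 48.0% of all genes. The higher one was Nr2f1, an orphan receptor of neural development, at 938 ± 245 (SD, n = 5) against 114 ± 49.4 (SD, n = 4), a log2 fold change of 2.91 (limma adjusted p = 2.7e-05). Fabp5, a fatty acid binding protein that can also carry retinoic acid, was not called, at 0.99 (adjusted p = 0.105). It was highest in tumours 1, 2 and 3, at 6086, 8263 and 11212, and was called without tumour 4, at 1.29 (adjusted p = 0.0300), without tumour 5, at 1.23 (adjusted p = 0.0479), or with ribosomal protein and proteasome centring, at 1.21 (adjusted p = 0.0477). The other tested probe set of Fabp5, 1416022_at, was not called, at 1.39 (limma adjusted p = 0.0722 over probe sets).

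Of 6 tested corepressors and coactivators, 2 were higher, 1 lower and 3 not called, so 3 of 6 were called beside 48.0% of all genes. Zfp423, a zinc finger protein that works with retinoic acid receptors, was at 605 ± 128 (SD, n = 5) against 91.8 ± 46.3 (SD, n = 4), with no overlap and a log2 fold change of 2.64 (limma adjusted p = 0.00013). Nrip1, a corepressor of nuclear receptors that retinoic acid can induce, fell by 1.37 (limma adjusted p = 0.00409). Its other tested probe sets, 1418469_at, 1454295_at and 1432603_at, were lower too but not called, at −1.70, −1.22 and −0.53. Ncoa2, a coactivator, was not called, at 0.34, but was called at 0.56 (adjusted p = 0.0356) with ribosomal protein and proteasome centring. The other tested probe sets of Ncoa2, 1435234_at and 1446827_at, were not called either, at 1.26 and 0.51.

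Of 13 tested genes known as retinoic acid responsive, 4 were higher, 4 lower and 5 not called, or 61.5% called beside 48.0% of all genes, with a median log2 fold change of −0.62. Ngfr, a neurotrophin receptor, averaged 2712 ± 553 (SD, n = 5) over the tumours, against 137 ± 49.7 (SD, n = 4) for muscle (log2 fold change 4.21, limma adjusted p = 3.9e-06). Its other tested probe set, 1450177_at, gave 2.73. The average over all Ngfr probe sets, including any that were not tested, was lower than both, at 2.40. Meis2, a homeobox cofactor, was at 1087 ± 283 (SD, n = 5) against 191 ± 186 (SD, n = 4), with the intercostal sample at 469 and the other muscle samples from 81.0 to 123 (log2 fold change 2.72, limma adjusted p = 0.000433, and 1.81 on its other tested probe set, 1440091_at). Tgm2, tissue transglutaminase, fell by 2.00 (limma adjusted p = 0.00261), from 4494 ± 372 (SD, n = 4) to 1362 ± 1064 (SD, n = 5). Its probe set 1426004_a_at was not called, at −0.55, while its other tested probe sets were called lower, at −2.23 to −1.54. Tumour 5 stood highest of the tumours in Tgm2, at 3197, and without it the log2 fold change was −2.37. Bhlhe40, a circadian and stress repressor, fell by 1.39 (limma adjusted p = 0.00165). Gprc5b, an orphan receptor, fell by 1.94 (limma adjusted p = 0.0245), but its other tested probe set, 1451411_at, was not called, at 0.21. The call of Gprc5b ended without muscle 2 (adjusted p = 0.0615), without muscle 4 (adjusted p = 0.0557), without tumours 1 and 4 (adjusted p = 0.0908) and when muscles 2 and 3 were left out (adjusted p = 0.130). With its probe sets averaged it was −0.87 (adjusted p = 0.0688).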

How the data were processed

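MAS5 is the tool named by the submitters' processing notes, with no version or scaling target given in the sources used here. What the authors deposited is 1 linear intensity per probe set and array. A shared 2% trimmed mean was then given to all arrays by factors of 0.909 to 1.29. Each gene was represented by its single-symbol probe set with the highest mean log2 level, after 7 control probe sets, 496 with several symbols and 4424 with none were left out. Limma 3.58.1 in R 4.3.3 (lmFit, eBayes with an intensity trend, two-sided) was fitted to log2(scaled intensity + 16) over 10650 genes and again over 17433 probe sets. On simulated data for tumour against muscle, 200 of 10650 genes were changed, a far smaller share than the 48.0% called here. The recovered share was 31.0% at a 2-fold change and 86.0% at a 4-fold change. These shares need not hold for the data, since the adjustment depends on how many genes change.

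The members and lists were chosen with earlier results of these data known. Named were all members, pathway genes called with at least a 2-fold change (up to 6 each way), the 4 brightest not called, and the 2 genes most like each called member. Alternatives were 5 scalings, pseudocounts of 1 and 64, 2 filters, 2 choices of probe set, 3 fits, CC17-A and CC17-B averaged, each array left out in turn, and tumours 1 and 4 or muscles 2 and 3 left out. Where samples were left out or averaged, the genes tested and their probe sets were kept.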

Additional observations from a re-analysis of the deposited data

Results flagged for a closer look

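Among the 32 probe sets of the members and other named genes, 7 of 64 sets of tumour or muscle values held 1 array far from the rest of its group by Dixon's test, which chance alone flags in about 5% of them. Cyp26b1 was at 1145 in tumour 1, with the other tumours from 336 to 479, and tumour 1 also had the highest Actb ratio, whose part was not tested. Rarg (1419415_a_at) was at 565 in muscle 1, with the other muscle arrays from 765 to 812. The dim Aldh1a3 probe set 1427395_a_at was at 7.44 in muscle 3, with the others from 24.7 to 27.8. Ngfr was at 63.98 in muscle 3, with the others from 152 to 177. Rdh14 was at 980 in tumour 1, with the other tumours from 1499 to 1700. Fabp5 was at 4315 in muscle 2, with the others from 2069 to 2201, and Ttll5 was at 218 in muscle 3, with the others from 153 to 157.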

How the results depend on the processing

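Over the alternatives that gave a value, Crabp1 (2.26 to 3.61 over 24), Rarb (1.40 to 1.86 over 26) and Aldh1a2 (1.96 to 2.82 over 26) were called each time on the log2 scale, and Cyp26b1 (0.13 to 0.63 over 26) never. Rarg was −0.065 as deposited, −0.13 at a common median, −0.20 at a common 75th percentile and −0.15 after quantile normalization, and −0.054 to 0.15 with single arrays left out, where the sign turned without tumour 1 (−0.013) and without muscle 1. Its probe set 1419416_a_at ran from 0.52 to 1.56 with single arrays left out. Aldh1a3 was called with ribosomal protein and proteasome centring (1.91) and without tumours 1 and 4 (2.58, and 1.86 on 1417642_at), and ran from 1.25 to 2.24 with single arrays left out. Without tumours 1 and 4, 5 member probe sets were called. Pathway genes called higher numbered 14 after ribosomal protein and proteasome centring. Adh5 was −0.033 at a common median and −0.10 at a common 75th percentile, Gprc5b 0.22 with a pseudocount of 1, which chose another probe set, and Rdh14 0.080 with probe sets averaged. For the 22 other named genes, 547 of 566 values kept their direction and call. Crabp1, Cyp26a1, Nrcam and Ssh3 were not tested with the floor at the 60th percentile. Neither were probe sets 1417642_at of Aldh1a3 and 1419416_a_at of Rarg. Crabp1, Rarg, Tgm2, Adh5 and Pdgfc had no value from plain _at probe sets alone. With arrays left out, Crabp1 was kept in the test even where fewer than 4 arrays reached the floor. No paired analysis was possible because the labels give the groups no shared replicate numbers. The cause of these changes was not tested. Dim signals limit Rara, the weaker probe sets of Rarg and Aldh1a3, and Crabp1, Cyp26a1, Nrcam, Adcy1 and Ssh3 in muscle.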
